A study of Homo sapiens with 6 samples.

Results

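The 7 genes examined take part in the fetal state of blood and other tissues: the fetal globin repressors *BCL11A* and *ZBTB7A*, the let-7 antagonist *LIN28B*, the RNA-binding protein genes *IGF2BP1*, *IGF2BP2* and *IGF2BP3*, and *HMGA2*. They were chosen by symbol, through the Ensembl gene identifier of each row of the count files, and all 7 were found among the 60671 genes listed. Of these, 5 passed the expression filter, which kept 12364 genes for testing. The cells were a clone of K562, an established line from a chronic myeloid leukemia, that makes the fusion Flag-NLS-M.CviPI-Lamin-B1, a GpC methyltransferase joined to Lamin B1, when doxycycline is given. Both groups came from this single clone, and both received 1 µg/mL doxycycline over the final 24 h. The EZH2i group was 3 separate cultures given 1 µM GSK343, an inhibitor of EZH2, over 72 h, and the DMSO group was 3 separate cultures given 0.1% DMSO over the same time. RNA was read by QuantSeq 3′ mRNA sequencing, a method that reads the stretch next to the poly(A) tail, and the authors deposited a raw read count per gene and library. The comparison asks whether the RNA level of these genes changed when EZH2, the enzyme that methylates histone H3 at lysine 27, was inhibited.

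Each library held 6327544 to 8987768 reads on genes, and values are given as CPM, counts per 1000000 reads scaled with edgeR's TMM factors. Of 9 markers of this erythroid leukemia line, 9 passed the expression filter, and their summed level was 835 to 949 CPM in DMSO and 859 to 910 CPM in EZH2i. By the test described below, 1 of the 9 rose (*HBG2*) and 8 did not pass. Most markers of other cell types had few reads, with exceptions. *CD3D*, a T cell gene, was at 63.8 ± 5.82 CPM in DMSO (SD, n = 3) and 88.0 ± 9.57 CPM in EZH2i (n = 3), with its partners *CD3E* and *CD3G* at 24 and 23 reads over all 6 libraries. The summed T cell list ran from 58.6 to 71.0 CPM in DMSO and from 83.0 to 101 CPM in EZH2i, with none of its 3 genes at 0. The epithelial list, nearly all *EPCAM*, ran from 72.7 to 83.5 CPM in DMSO and from 61.3 to 66.7 CPM in EZH2i. The monocyte list, nearly all *LYZ*, ran from 11.1 to 16.4 CPM and from 20.3 to 23.3 CPM, and the fibroblast list, mostly *COL1A1*, from 1.41 to 2.84 CPM and from 5.55 to 8.88 CPM. Of these lists, *CD3D* (adjusted p = 0.0309), *LYZ* (0.0426) and *COL1A1* (0.00424) rose by edgeR's quasi-likelihood test, and *EPCAM* (0.156) did not pass. The part of these genes in the results below was not tested. EZH2i replicate 3 had 12.7% of its listed reads outside any gene, against 7.43% to 8.51% in the other 5 libraries. In a bulk sample, fewer cells of a kind and less RNA per cell cannot be told apart.

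In the developing red cell lineage, BCL11A and ZBTB7A are zinc finger proteins that bind the γ-globin promoters and recruit chromatin-modifying complexes, and together they silence fetal globin after birth. LIN28B binds precursors of the let-7 microRNAs and blocks their maturation. Mature let-7 pairs through its seed, bases 2 to 8, with sites in the 3′ untranslated regions (UTRs) of its targets and lowers them. The IGF2BP proteins bind mRNAs through KH domains and affect their stability and translation, and IGF2BP1 and IGF2BP3 are known as oncofetal proteins. HMGA2 is an AT-hook chromatin protein of embryonic tissue and a classical let-7 target. K562 cells are known for making embryonic and fetal globin rather than adult β-globin. In these libraries, however, embryonic *HBE1* had only 23 reads over all.

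Matches to the let-7 seed were found in *LIN28B*, the *IGF2BP* genes and *HMGA2*, so the microRNAs and the sites are shown here. All 9 mature let-7 family members in RefSeq's GRCh38 annotation share the seed GAGGUAG. The seed is in capitals in 3 of them, which differ from each other only outside it.
hsa-let-7a-5p: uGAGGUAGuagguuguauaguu
hsa-let-7e-5p: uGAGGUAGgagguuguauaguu
hsa-miR-98-5p: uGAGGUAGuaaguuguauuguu

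The 3′ UTR of the MANE Select transcript (the agreed main transcript of a gene, here from GENCODE 44 on GRCh38) was searched on the transcript strand for CTACCTC, the reverse complement of that seed. Matches were allowed to overlap, and none did in these 7 genes. Of 18780 such UTRs, 1849 (9.85%) held at least 1 match. *BCL11A* (a UTR of 3210 bases) and *ZBTB7A* (4449 bases) held none. *IGF2BP2* (2401 bases) and *IGF2BP3* (2153 bases) held 1 each. Of UTRs of like length, those from 0.8 to 1.25 times as long, 13.1% and 12.1% held at least 1. *LIN28B* (4549 bases), *IGF2BP1* (6701 bases) and *HMGA2* (2999 bases) held 4 each. Among UTRs of like length, 4 or more were found in 2 of 1613 for *LIN28B* (0.124%), in 3 of 777 for *IGF2BP1* (0.386%) and in 1 of 2373 for *HMGA2* (0.0421%). A match is a description of the sequence, and no microRNA was measured here.

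The sites of *LIN28B*, which lies on chromosome 6 of GRCh38 from 104936616 to 105083332 on the plus strand, are given with their 30-base windows, read 5′ to 3′ on the transcript strand. The seed match is in capitals. Their first bases lie 44, 2471, 2653 and 4092 bases into the UTR.
LIN28B site 1, chr6:105078805-105078834: ttcctttacccggttgcaaagtCTACCTCa
LIN28B site 2, chr6:105081232-105081261: tattatgtactgatgatagtaaCTACCTCt
LIN28B site 3, chr6:105081414-105081443: ttactctgtttacagcaaaaggCTACCTCa
LIN28B site 4, chr6:105082853-105082882: agcttgaaaatgatggtgttgaCTACCTCt

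In *IGF2BP1* (chromosome 17, 48997385 to 49056145, plus strand) the matches lie 1632, 4269, 4923 and 5568 bases into the UTR, and the first 3 are followed by A, as are the single sites of its paralogs. *IGF2BP2* is on the minus strand of chromosome 3 (185643130 to 185825042) and *IGF2BP3* on the minus strand of chromosome 7 (23310209 to 23470491).
IGF2BP1 site 1, chr17:49051054-49051083: gcaatgctgtgtgcgaagtaaaCTACCTCa
IGF2BP1 site 2, chr17:49053691-49053720: tgggaaccagcagtgctagtaaCTACCTCa
IGF2BP1 site 3, chr17:49054345-49054374: gctacgagtataaatggattaaCTACCTCa
IGF2BP1 site 4, chr17:49054990-49055019: ccccatttcacttttgttttatCTACCTCt
IGF2BP2 site 1, chr3:185644220-185644249: cgagaaaaacacacagaagaagCTACCTCa
IGF2BP3 site 1, chr7:23311795-23311824: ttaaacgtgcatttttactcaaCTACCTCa

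*HMGA2* (chromosome 12, 65824460 to 65966291, plus strand) has its first match 21 bases into the UTR, so that this window starts inside the stop codon, and the others 1256, 1668 and 2521 bases in.
HMGA2 site 1, chr12:65963291-65963320: agggggcgccaacgttcgatttCTACCTCa
HMGA2 site 2, chr12:65964526-65964555: aatatatccccactactcaataCTACCTCt
HMGA2 site 3, chr12:65964938-65964967: ggactaattgacttgcaaagacCTACCTCc
HMGA2 site 4, chr12:65965791-65965820: gttgtacaatcaaaacacactaCTACCTCt

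**Figure D1:**
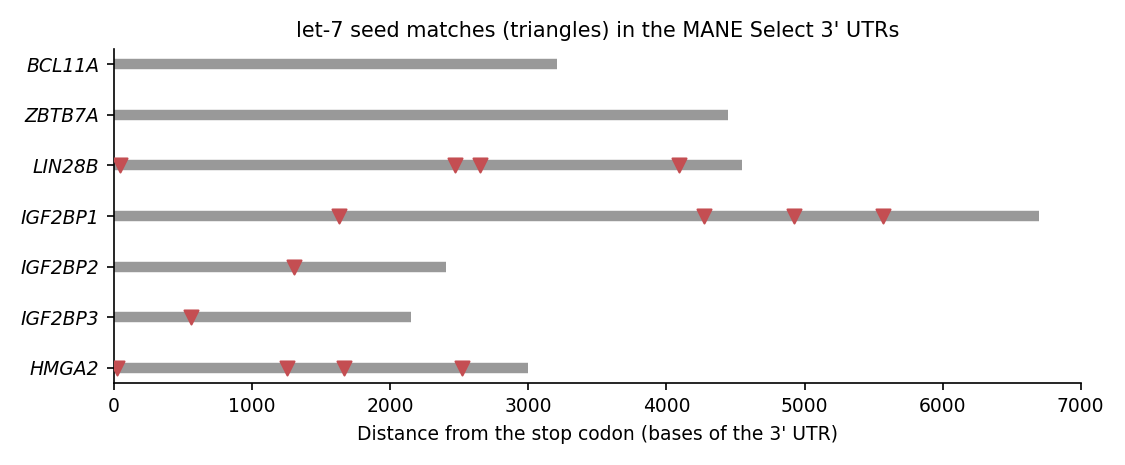
Map of the let-7 seed matches. Each grey bar is a MANE Select 3′ UTR drawn to scale from the stop codon (x axis, bases), and each triangle is a match to CTACCTC. LIN28B, IGF2BP1 and HMGA2 have 4 triangles, IGF2BP2 and IGF2BP3 have 1, and BCL11A and ZBTB7A have none.

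Of the fetal globin repressors, *ZBTB7A* was abundant and *BCL11A* was at the edge of detection. *BCL11A* (ENSG00000119866, minus strand of chromosome 2, 60450520 to 60554467) had 2 reads in DMSO replicate 2 and 0 reads in each of the other 5 libraries. The 2 reads correspond to 0.230 per 1000000 reads on genes, with an exact 95% interval from 0.0278 to 0.829 that covers counting error only. As the limit for a count of 0, 3 reads were taken, which is 0.340 to 0.469 CPM in these libraries and lower than the upper bound of the exact interval for 0 reads (0.410 to 0.583 per 1000000 reads on genes). *BCL11A* was therefore not tested, and no difference between the groups was detectable at this depth.

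*ZBTB7A* (ENSG00000178951, minus strand of chromosome 19, 4043303 to 4066899) had 1375, 2260 and 2107 reads in DMSO and 1504, 1993 and 1639 reads in EZH2i. Its level was 215, 268 and 239 CPM in DMSO replicates 1, 2 and 3 and 204, 251 and 235 CPM in EZH2i replicates 1, 2 and 3. The groups overlap, and replicate 1 is the lowest library in each. Its mean over all libraries was above that of 94.3% of the tested genes. The level of *ZBTB7A* was 95.5% of the DMSO mean after EZH2 inhibition, a log2 fold change of -0.07 ± 0.11 (SE, n = 3 per group) with a 95% interval from -0.30 to 0.17 (edgeR's quasi-likelihood test, adjusted p = 0.799 over all tested genes). The interval corresponds to folds from 0.810 to 1.13. The sign of this estimate rested on single libraries, being 0.02 when DMSO replicate 2 was left out and 0.01 when EZH2i replicate 1 was.

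*LIN28B* (ENSG00000187772) was expressed in every library, with 443 to 618 reads. Its level was 79.6, 65.5 and 70.1 CPM in the DMSO replicates and 67.9, 69.0 and 63.5 CPM in the EZH2i replicates. DMSO replicate 1 is the highest library and EZH2i replicate 3 the lowest, with the others between them and the groups overlapping. The log2 fold change was -0.10 ± 0.11 (SE, n = 3 per group), with a 95% interval from -0.33 to 0.13 (edgeR, adjusted p = 0.671). Its paralog *LIN28A*, which blocks let-7 maturation with terminal uridylyltransferases, had 10 reads over all 6 libraries and was not tested. Exons of the antisense gene *LIN28B-AS1* share 181 bases with those of *LIN28B*, and it had 0 reads.

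**Figure D2:**
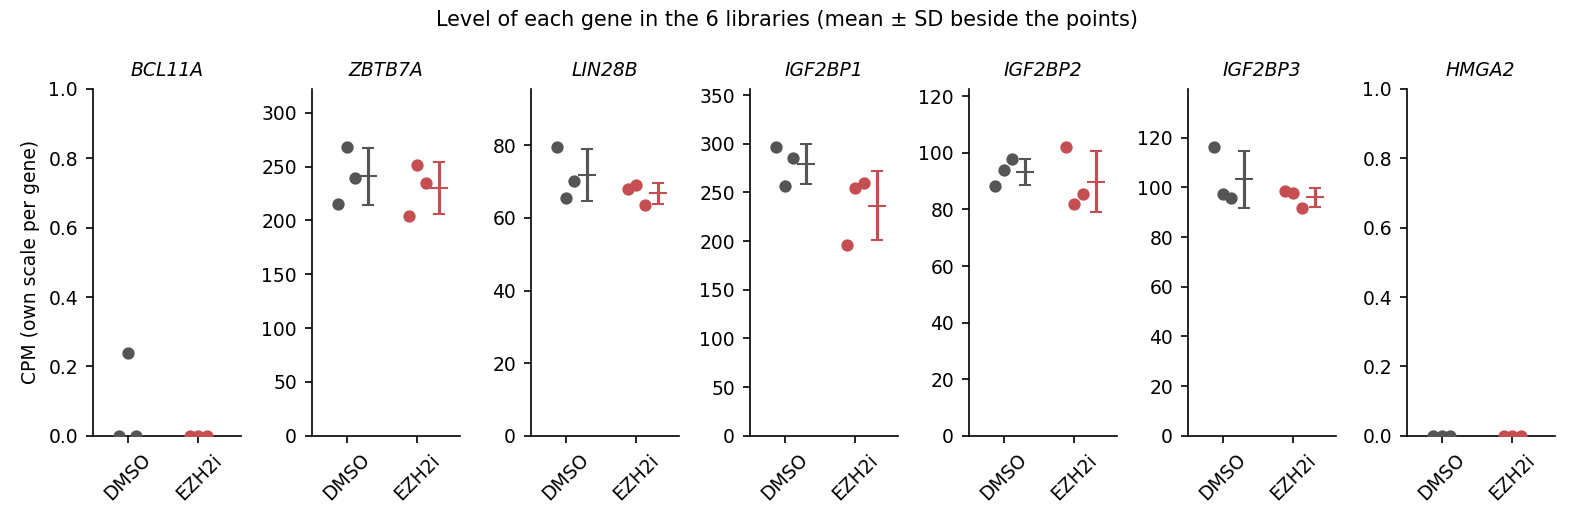
Levels of the 7 genes. Each point is a library (CPM, each panel with its own axis from 0), and the bars beside the points give the mean and SD of the 3 libraries of a group for the 5 tested genes. The DMSO and EZH2i points overlap in each of those 5 panels, and BCL11A and HMGA2 lie at or near 0.

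The 3 *IGF2BP* genes were all expressed, and *IGF2BP1* took the largest share of their reads in every library. *IGF2BP1* (ENSG00000159217) had 297, 257 and 285 CPM in the DMSO replicates and 196, 254 and 259 CPM in the EZH2i replicates. EZH2i replicate 1 lies well below the other 5 libraries, while EZH2i replicate 3 lies above DMSO replicate 2. The mean went from 279 ± 20.6 CPM to 236 ± 35.4 CPM (SD, n = 3 each), the largest difference among the 5 tested genes, with a log2 fold change of -0.24 ± 0.12 (SE) and a 95% interval from -0.49 to 0.004. The adjusted p was 0.267 and the unadjusted p was 0.0535 (edgeR), so the gene did not pass the test. Without EZH2i replicate 1 the log2 fold change was -0.12 with an adjusted p of 0.551 (edgeR). Exons of *IGF2BP1* share 37 and 76 bases with those of 2 noncoding genes on the opposite strand, all outside its last 1000 bases.

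*IGF2BP2* (ENSG00000073792), the member of the family that many adult tissues keep, had 88.4, 93.8 and 97.7 CPM in the DMSO replicates and 102, 82.0 and 85.4 CPM in the EZH2i replicates. Here EZH2i replicate 1 is the highest library and EZH2i replicate 2 the lowest, so the EZH2i values enclose those of DMSO. The log2 fold change was -0.06 ± 0.11 (SE, n = 3 per group; 95% interval -0.29 to 0.18; edgeR, adjusted p = 0.835), and it was 0.01 without EZH2i replicate 2.

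*IGF2BP3* (ENSG00000136231) had 116, 97.5 and 95.9 CPM in the DMSO replicates and 98.7, 97.6 and 91.5 CPM in the EZH2i replicates. Apart from DMSO replicate 1, which is the highest, the libraries lie close together, and the groups overlap. The log2 fold change was -0.10 ± 0.11 (SE, n = 3 per group), with a 95% interval from -0.33 to 0.12 (edgeR, adjusted p = 0.655). When 1 library was left out, it ranged from -0.15 (DMSO replicate 3) to -0.01 (DMSO replicate 1). The last 1000 bases of the *IGF2BP3* MANE Select transcript, where 3′ reads fall, all overlap exons of *MALSU1* on the opposite strand. The strand setting of the counting is not given in the sources used here, so that reads of this pair may have been lost or exchanged. *MALSU1*, a mitochondrial ribosome assembly factor, was at 93.8 ± 2.23 CPM in DMSO and 80.4 ± 1.67 CPM in EZH2i (SD, n = 3 each), and it did not pass the test (log2 fold change -0.22 ± 0.10, SE; edgeR, adjusted p = 0.229).

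Since a share within the family needs no normalization, the reads of the 3 genes were also divided by their sum. In DMSO, *IGF2BP1* held 59.2%, 57.3% and 59.5% of them in replicates 1, 2 and 3. In EZH2i its share was 49.3%, 58.6% and 59.4%, so that EZH2i replicate 1 stands apart and the other 2 lie within the DMSO range. *IGF2BP2* held 19.7% ± 1.79 in DMSO and 21.4% ± 3.78 in EZH2i, and *IGF2BP3* held 21.7% ± 1.58 and 22.8% ± 1.98 (SD, n = 3 each). All 3 shares overlap between the groups. The summed level of the family was 502, 448 and 479 CPM in the DMSO replicates and 396, 434 and 436 CPM in the EZH2i replicates, groups that do not overlap, like those of 24.5% of single tested genes. This sum was made after the values of its members were known and was not tested.

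**Figure D3:**
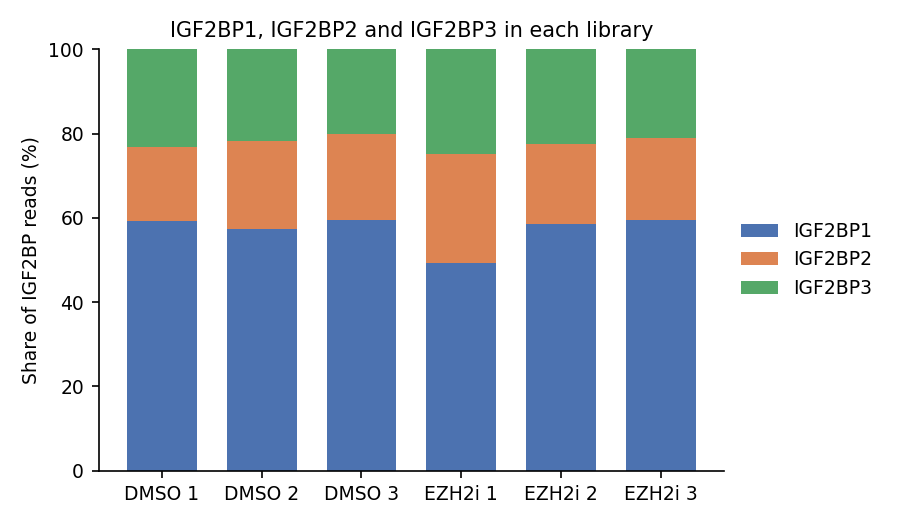
Make-up of the IGF2BP reads. Each bar is a library and shows the percent of its IGF2BP1, IGF2BP2 and IGF2BP3 reads that fell on each gene. IGF2BP1 holds 57.3% to 59.5% in 5 of the 6 libraries and 49.3% in EZH2i replicate 1, where the share of IGF2BP2 is 25.8%.

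*HMGA2* (ENSG00000149948) had 0 reads in each of the 6 libraries, which by the limit of 3 reads allows up to 0.340 to 0.469 CPM, and it was not tested. Its antisense neighbor *HMGA2-AS1* was at 0 reads as well. The paralog *HMGA1*, which is also a let-7 target, was instead very abundant, at 1546 ± 62.0 CPM in DMSO and 1306 ± 305 CPM in EZH2i (SD, n = 3 each; log2 fold change -0.24 ± 0.14, SE; edgeR, adjusted p = 0.352). The other paralogs, *BCL11B* and *ZBTB7C*, had 0 and 2 reads over all libraries, while *ZBTB7B* was tested and did not pass (9.20 ± 1.10 CPM in DMSO and 9.70 ± 1.89 CPM in EZH2i; edgeR, adjusted p = 0.869). Of the 2 paralogs tested, 0 passed by edgeR, DESeq2 or limma-voom, and 0 had an unadjusted p under 0.05.

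Of the 5 tested members, 0 passed the test in edgeR, and 0 had an unadjusted p under 0.05. Of all 12364 tested genes, 4.26% were called, 3.34% higher and 0.922% lower, and 19.1% had an unadjusted p under 0.05. DESeq2 and limma-voom also called 0 of the members. The groups overlapped in all 5 members, where 24.5% of all tested genes had groups that do not overlap. All 5 log2 fold changes were below 0 with all libraries included, with a median of -0.10, where 50.0% of all tested genes were below 0 and the median was -0.0002. As given above, *ZBTB7A* and *IGF2BP2* turned above 0 without single libraries. *LIN28B* and *IGF2BP3* came near 0 without DMSO replicate 1 (-0.02 and -0.01). With 5 genes that share the same 6 libraries, this sign was not tested. The 95% intervals of the 5 genes run from -0.49 at the lowest to 0.18 at the highest, so that a change by 1 or more on the log2 scale lies outside every interval.

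**Figure D4:**
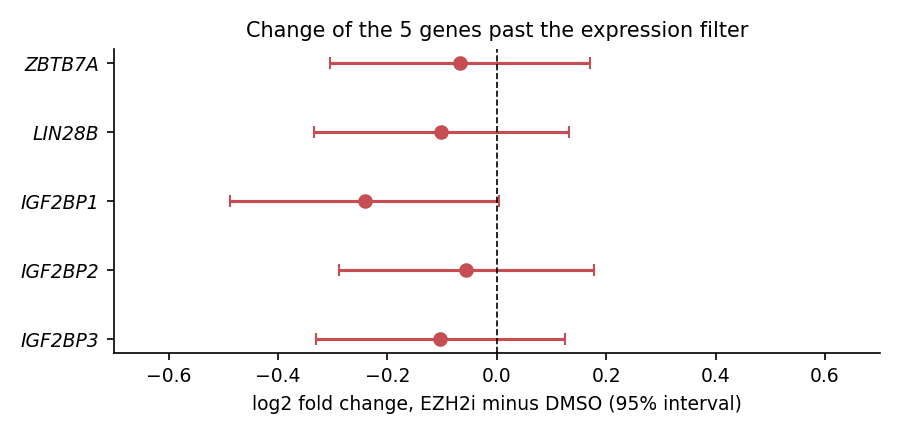
Changes of the 5 tested genes. Points are log2 fold changes of EZH2i against DMSO from edgeR (n = 3 per group), bars are 95% intervals, and the dashed line marks no change. Every interval includes 0, with that of IGF2BP1 reaching from -0.49 to 0.004.

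The spread between libraries was larger than counting error for all 5 genes in DMSO but not for all in EZH2i. In DMSO, the coefficient of variation was 11.1% for *ZBTB7A* and 7.38% for *IGF2BP1*, where counting alone gives 2.34% and 2.15%. For *LIN28B*, *IGF2BP2* and *IGF2BP3* it was 10.0%, 5.03% and 11.0%, where counting gives 4.24%, 3.74% and 3.53%. In EZH2i, *IGF2BP1* was the most variable at 15.0%, *LIN28B* at 4.37% lay below what counting gives (4.50%), and *IGF2BP3* at 4.04% lay slightly above it (3.75%).

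Levels were next compared between the genes. Per kilobase of merged exon length, the order in DMSO was *ZBTB7A* at 35.7 ± 3.96, *IGF2BP1* at 29.0 ± 2.14, *IGF2BP2* at 17.5 ± 0.880, *IGF2BP3* at 12.1 ± 1.33 and *LIN28B* at 12.1 ± 1.21 CPM per kb (SD, n = 3). In EZH2i the values were 34.1 ± 3.59, 24.5 ± 3.67, 16.9 ± 2.03, 11.2 ± 0.454 and 11.2 ± 0.491 CPM per kb in the same order. On this scale *IGF2BP3* and *LIN28B* overlap in both groups and do not differ beyond their spread, while the other neighbors do not overlap in either group. Reads of a 3′ method need not grow with transcript length, and on the CPM scale without length the order in DMSO was *IGF2BP1*, *ZBTB7A*, *IGF2BP3*, *IGF2BP2* and *LIN28B*. There, the level of *IGF2BP1* overlapped that of *ZBTB7A* and the level of *IGF2BP3* overlapped that of *IGF2BP2* in both groups. *LIN28B* was the lowest of the 5 on both scales, although it ties with *IGF2BP3* per kilobase. This tie rests on the division by length. On the CPM scale *IGF2BP3* was on average 1.44 times *LIN28B* in DMSO and in EZH2i, without overlap in either group.

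Genes with the most similar profile over the 6 libraries were then found for each tested member, among tested genes of like level, by the root mean square difference of log2 CPM after centering each gene on its own mean. For *LIN28B* they were *LARP4* (0.028), *ALYREF* (0.030) and *PPP1R8* (0.036) of 3620 candidates, and *IGF2BP3* lies close behind at 0.039. For *IGF2BP3* they were *UTP14A* (0.028), *COPS2* (0.031) and *SEPTIN2* (0.035). Of the members, *LIN28B* and *IGF2BP3* are thus the closest pair, as other pairs differ by 0.154 to 0.261. For *IGF2BP1* the nearest were *LSM4* (0.040), *BMS1* (0.045) and *PPT1* (0.050), for *IGF2BP2* *CIP2A* (0.031), *RNF7* (0.033) and *POLB* (0.033), and for *ZBTB7A* *NEU1* (0.057), *POLR2C* (0.060) and *ATP5PD* (0.064). With 6 libraries and this many candidates, such likeness is a description of these libraries.

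The cofactors through which BCL11A and ZBTB7A act were all expressed. Of 21 genes of the NuRD complex, its partners and other silencing enzymes, 21 were tested, 0 rose, 1 fell and 20 did not pass, with a median log2 fold change of 0.04 and 1 at an unadjusted p under 0.05 (19.1% of all tested genes are). The gene that fell was *DNMT1*, the maintenance DNA methyltransferase, at 528 ± 48.6 CPM in DMSO and 385 ± 21.7 CPM in EZH2i (SD, n = 3 each; log2 fold change -0.45 ± 0.10, SE; edgeR, adjusted p = 0.0190). It did not pass without DMSO replicate 2 (adjusted p = 0.106) or without EZH2i replicate 2 (adjusted p = 0.0820). Among 12 other fetal globin regulators, 11 were tested and 1 passed. *BACH1*, a heme-regulated repressor, rose from 41.5 ± 2.71 to 56.0 ± 1.81 CPM (SD, 3 libraries each), with a log2 fold change of 0.44 ± 0.11 (SE; edgeR, adjusted p = 0.0365), a call lost in 8 of 12 alternatives, where its adjusted p reached 0.133. The median of these 11 genes was 0.10, and 1 had an unadjusted p under 0.05.

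Of 10 globin genes of the α and β clusters, 7 were tested, of which 2 rose and 5 did not pass, with a median log2 fold change of 0.33. Of the 7, 4 had an unadjusted p under 0.05, where 19.1% of all tested genes did. The count called was 3 with no filter, with the replicate block or without EZH2i replicate 3. It was 1 without DMSO replicate 1, 2 or 3. *HBZ*, embryonic ζ-globin of the α cluster, had 498, 587 and 591 reads in DMSO and 1356, 1027 and 1142 reads in EZH2i (71.5 ± 5.64 and 159 ± 27.4 CPM; log2 fold change 1.15 ± 0.13, SE; edgeR, adjusted p = 6.1e-05). Fetal *HBG2* rose from 94.3 ± 11.6 to 140 ± 29.3 CPM (SD, 3 libraries each), with a log2 fold change of 0.58 ± 0.14 (SE; edgeR, adjusted p = 0.0251), but it did not pass without DMSO replicate 1, 2 or 3 (adjusted p = 0.0724, 0.138 and 0.0624). Its near-identical copy *HBG1* was at 11.2 ± 1.75 and 8.50 ± 3.95 CPM and did not pass (edgeR, adjusted p = 0.444), and how reads were divided between the copies is uncertain. Embryonic *HBE1* had 23 reads over all libraries and adult *HBB* had 2, and neither was tested, while adult *HBD* had 213 reads and did not pass (edgeR, adjusted p = 0.911). The α-globin gene *HBA2*, the most abundant of the list, was at 252 ± 61.3 and 316 ± 26.9 CPM (log2 fold change 0.33 ± 0.14, SE). *HBA1* was at 108 ± 10.0 and 147 ± 31.7 CPM (0.44 ± 0.13, SE). *HBA2* and *HBA1* did not pass (edgeR, adjusted p = 0.214 and 0.0714). Their unadjusted p was under 0.05 (edgeR, 0.0335 and 0.00408), like that of *HBZ* and *HBG2*.

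Of 17 genes for let-7 processing and decay, 15 were tested, 0 rose and 1 fell, with a median of 0.06. Of the 15, 5 had an unadjusted p under 0.05, where 19.1% of all tested genes did. *XPO5*, the exporter of microRNA precursors from the nucleus, had 872, 1248 and 1319 reads in DMSO and 571, 793 and 700 reads in EZH2i. This is 145 ± 7.28 and 92.5 ± 13.2 CPM (mean ± SD of 3 libraries), and the log2 fold change was -0.65 ± 0.12 (SE; edgeR, adjusted p = 0.00386). *XPO5* passed in all 12 alternatives, with adjusted p up to 0.0276. Of 8 host genes of let-7, 7 were matched and 5 tested, and 0 passed by edgeR, DESeq2 or limma-voom or had an unadjusted p under 0.05, with a median of 0.10. The most abundant were *HUWE1* (169 ± 9.04 and 195 ± 30.3 CPM; adjusted p = 0.343) and *WDR82* (57.9 ± 6.31 and 61.9 ± 7.37 CPM; adjusted p = 0.722), both from edgeR with n = 3 per group. A host transcript is not a measure of the mature microRNA.

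Among 20 let-7 targets other than the members, 16 were tested, of which 1 rose, 1 fell and 14 did not pass, with a median of 0.05. Of the 16, 6 had an unadjusted p under 0.05, where 19.1% of all tested genes did. *CDC25A*, a phosphatase that drives the cell cycle, fell from 60.5 ± 5.65 to 41.4 ± 5.53 CPM (SD, 3 libraries each), with a log2 fold change of -0.54 ± 0.13 (SE; edgeR, adjusted p = 0.0218), though not without DMSO replicate 1 or 2 (adjusted p = 0.115 and 0.0908). The receptor gene *IGF1R* rose from 4.0 ± 0.241 to 7.30 ± 0.370 CPM (log2 fold change 0.87 ± 0.23, SE; edgeR, adjusted p = 0.0414), a call lost in 8 of 12 alternatives, among them the fits without any single library (adjusted p from 0.0679 to 0.122). Over tested genes with a MANE Select 3′ UTR, 9415 held no CTACCTC match, with a median log2 fold change of -0.007 and 4.58% called, and 1026 held 1 match, with a median of 0.02 and 5.07% called. The 118 with 2 matches had a median of 0.008 and 7.63% called. Below 0 were 51.1% of the genes with no match, 47.4% of those with 1 and 44.1% of those with 2. Of the 23 with 3 or more matches, a class that holds *LIN28B* and *IGF2BP1*, 0 were called by edgeR or DESeq2 and 5 had an unadjusted p under 0.05, where 4.65% of the 10582 genes of all classes were called by edgeR and 20.3% had an unadjusted p under 0.05. In this class 6 genes (26.1%) were below 0, where 50.6% of the genes of all classes were, and the median was 0.10. No relation between the number of matches and the change was tested, and the classes were not matched for UTR length or level. UTRs of the class with 3 or more matches run from 1837 to 19695 bases. The largest log2 fold changes of that class (0.98, 0.69 and 0.66) belong to genes at 1.83, 1.90 and 2.88 CPM in DMSO. From the lists above, the class also holds *HIC2*, a repressor of *BCL11A* (4 matches; log2 fold change 0.06 ± 0.10, SE), *NR6A1* (5 matches; 0.07 ± 0.11) and *MBD2* (3 matches; 0.04 ± 0.12).

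Of 6 mRNAs known to be bound by IGF2BP proteins, 5 were tested, 1 rose and 4 did not pass, with a median of 0.28. Of the 5, 2 had an unadjusted p under 0.05, where 19.1% of all tested genes did. *CD44*, a cell adhesion receptor, had 5, 15 and 19 reads in DMSO and 52, 61 and 51 in EZH2i (1.57 ± 0.710 and 7.35 ± 0.326 CPM; log2 fold change 2.16 ± 0.31, SE; edgeR, adjusted p = 0.000899). It passed in all 11 alternatives that test it, and it is left out where at least 10 reads are asked of every library. Of 11 other oncofetal genes, 4 were tested, 1 rose and 3 did not pass, with a median of 0.57 and 3 at an unadjusted p under 0.05, while 5 had 0 reads. *DLK1*, a fetal surface protein of the Notch ligand family, rose from 1310 ± 54.3 to 1850 ± 158 CPM (SD, 3 libraries each), with a log2 fold change of 0.50 ± 0.10 (SE; edgeR, adjusted p = 0.0114), though not without DMSO replicate 3 (adjusted p = 0.0661). *IGF2*, the mRNA that gave the IGF2BP family its name, had 0 reads.

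**Figure D5:**
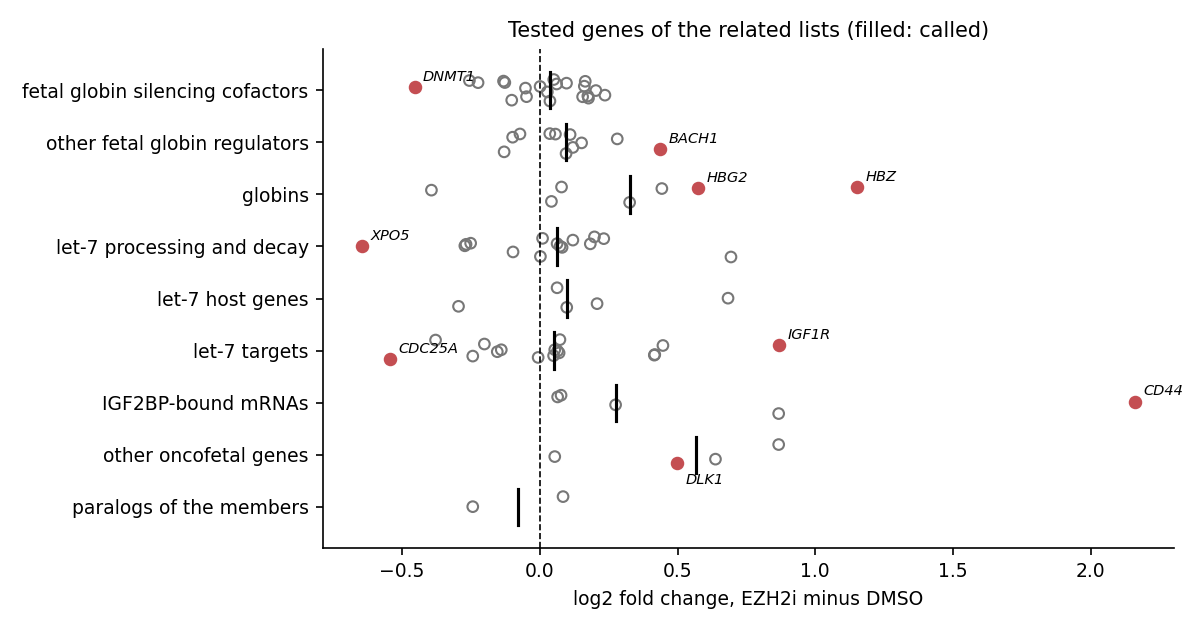
Changes in the related lists. Each circle is a tested gene at its log2 fold change of EZH2i against DMSO (edgeR), filled and named where it was called, and black bars are list medians. The named genes run from XPO5 at -0.65 to CD44 at 2.16, and most circles lie near 0.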

How the data were processed

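RNA was measured in 3 DMSO and 3 EZH2i libraries of the K562 clone, sequenced as 50 bp single-end QuantSeq 3′ FWD reads. Per the submitters' processing notes and the methods of the study, reads were placed on hg38 (GRCh38) with STAR 2.6.0c and counted per Ensembl gene with HTSeq 0.11.2, and the authors deposited raw counts for each library, not pooled. A deposited table of the authors' DESeq2 comparison (mean normalized count, fold change, its error, Wald statistic and p-values) was not used.

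Rows that name no gene were left out, so that 63.6% to 67.9% of the listed reads were used. Symbols come from GENCODE 44 on the same build, with 60401 of 60671 identifiers matched. Genes were filtered with filterByExpr (minimum count 10) and tested in R 4.3.3 with edgeR 4.0.16 (TMM, estimateDisp, glmQLFit, glmQLFTest), two-sided, with p-values adjusted over 12364 genes after Benjamini and Hochberg and called under 0.05, at a common dispersion of 0.0129. The standard error is the log2 fold change divided by the square root of F. DESeq2 1.42.0, limma-voom (limma 3.58.1), other filters and scalings, a replicate block and fits without each library were alternatives. Within each group no library repeated another, since the chi-square between replicates was 4.56 to 12.7 per degree of freedom. The pairs that hold EZH2i replicate 1 were the highest (10.8 and 12.7), against 4.56 for EZH2i replicates 2 and 3.

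The members and lists were chosen with earlier results of these data known. From each list, genes that passed are named (at most 4 per direction), or else the 2 most abundant. *LIN28A*, *MALSU1*, *HBG1*, *HBB*, *HBE1*, *HBD*, *HBA1*, *HBA2*, *H19*, *IGF2*, *BCL11B*, *ZBTB7C*, *HIC2*, *NR6A1*, *MBD2*, *CD3E* and *CD3G* were named after their values were seen. One marker list is not reported here.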

Additional observations from a re-analysis of the deposited data

How the results depend on the processing

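None of the members was called by edgeR or under any of the 12 alternatives, and their adjusted p ranged from 0.211 to 0.988. When 1 library was left out, the log2 fold change of *ZBTB7A* ranged from -0.144 to 0.0189, above 0 without DMSO replicate 2 or, at 0.0148, EZH2i replicate 1. That of *IGF2BP2* ranged from -0.156 to 0.00557, above 0 without EZH2i replicate 2. The share of *IGF2BP1* in EZH2i minus that in DMSO was -2.89 percentage points and ranged from -4.71 to 0.341 when 1 library was left out. The count of called genes, 527, became 928 with no filter on low counts (349 lower in place of 114), and the cause was not tested. Leaving out 1 library gave 209 to 536 called genes, 180 to 412 higher and 20 to 124 lower, and 4 to 10 called list genes in place of 9. With the replicate block, 599 genes, 0 members and 8 list genes were called. Same-numbered libraries did not deviate together (correlations of -0.0511, -0.0175 and -0.0170), so the numbers were not read as pairs. *BACH1* and *IGF1R* did not pass with the block (adjusted p = 0.0514 and 0.0521) or with DESeq2 (adjusted p = 0.0611 and 0.138). Depth limits *BCL11A* and *HMGA2*, which had at most 2 reads in any library.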
